A study of Mus musculus with 19 samples.

Results

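The transcripts of 7 genes of megakaryocytes, the large marrow cells that shed platelets, were followed in 19 mouse bone-marrow RNA-seq libraries: Pf4, Vwf, Selp, Itga2b, Gp1bb, Gp9 and Cd9. They are 7 of the 16842 gene symbols in the deposited counts, and each was listed in all 19 libraries. The first 6 were taken by name as known genes of the lineage. Cd9 was chosen by measured values, namely its genotype effect, which was unlike in LK and Cd11b cells, so its genotype values are given as a description with no test.

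The series asks what mutant Asxl1, which encodes a chromatin regulator, does in blood cells in the setting of clonal hematopoiesis and myeloid leukemia. Libraries labelled MT came from Asxl1-mutant mice and those labelled WT from wild-type mice. Cd11b cells are marrow myeloid cells, and were taken at 4 months of age (called young here, with 3 MT against 4 WT libraries) or at 18 months (called old, with 3 of each genotype). LK cells are marrow progenitor or stem cells that lack lineage markers and carry Kit, taken at 18 months, again with 3 of each genotype. The mutant allele, the cells that carry it, the strain and the sex of the mice are not given in the sources used here. The labels do not say whether replicates are separate mice, so the p-values measure only the spread between these libraries.

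Megakaryocytes arise from stem and progenitor cells in the marrow and load platelets with alpha granules, stores of protein that are released at a wound. Platelet factor 4 (Pf4), von Willebrand factor (Vwf) and P-selectin (Selp) are granule products. Itga2b (CD41) pairs with Itgb3 to form the fibrinogen receptor, and Gp1bb and Gp9 are small subunits of the receptor complex that holds von Willebrand factor. Itga2b and Vwf transcripts are also known from stem and progenitor cells with a bias to this lineage. Cd9 is a tetraspanin, a membrane organiser found on platelets and on many other blood cells.

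No group was sorted for megakaryocytes, and in these bulk libraries fewer cells of a type and less RNA per cell cannot be told apart. Levels are CPM, a gene's count scaled to a common library total with TMM factors. Total gene counts ran from 26251822 to 68260809 per library. The sorting markers followed the labels: Itgam, which encodes CD11b, was at 1482 CPM or more in Cd11b and at 85.5 CPM or less in LK libraries, and Kit was at 169.8 or more in LK and 115 or less in Cd11b libraries. Asxl1 was lower in the 3 LK MT (92.3 to 97.3 CPM) than in the 3 LK WT libraries (106 to 117 CPM), and its level does not check the labels because the allele is not given. In each 18-month group replicates 2 and 3 were close to each other (chi-square per degree of freedom over genes 2.92 to 6.39) and replicate 1 stood apart from both (13.7 to 44.6). The LK and old Cd11b comparisons were therefore also fitted without replicate 1.

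The 250 bases before the RefSeq start are shown for 3 members whose window lies outside annotated exons and whose level was higher in LK than in old Cd11b cells (GRCm38.p6, 5′ to 3′ on the strand of the gene). Capitals mark the ETS word. The ETS family of transcription factors includes the megakaryocyte regulator Fli1, and its word here is GGAA with A or C before it and A or G after it, on either strand.
Pf4, chr5:90772185-90772434, plus strand: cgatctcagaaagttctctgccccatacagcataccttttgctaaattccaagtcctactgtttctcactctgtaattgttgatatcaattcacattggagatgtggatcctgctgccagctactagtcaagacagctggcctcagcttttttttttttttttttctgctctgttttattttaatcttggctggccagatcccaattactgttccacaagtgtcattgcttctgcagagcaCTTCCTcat
Gp9, chr6:87777820-87778069, plus strand: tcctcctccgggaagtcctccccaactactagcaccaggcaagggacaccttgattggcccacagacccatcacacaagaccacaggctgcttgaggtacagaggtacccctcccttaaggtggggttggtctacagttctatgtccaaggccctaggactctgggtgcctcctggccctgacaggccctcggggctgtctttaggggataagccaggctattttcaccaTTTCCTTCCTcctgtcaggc
Selp, chr1:164115014-164115263, plus strand: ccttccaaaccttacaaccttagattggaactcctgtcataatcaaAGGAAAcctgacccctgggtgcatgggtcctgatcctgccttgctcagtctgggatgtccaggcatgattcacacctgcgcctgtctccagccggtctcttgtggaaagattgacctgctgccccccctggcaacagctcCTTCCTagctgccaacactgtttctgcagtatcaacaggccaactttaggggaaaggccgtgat
An ETS word was present in the windows of all 6 members with an entry, Pf4, Selp, Itga2b, Gp1bb, Gp9 and Cd9, against 57.2% of 32851 mouse promoter windows of this length. The GATA word (GATA with A or T before it and A or G after it, on either strand) was found in 1 of the 6, Gp1bb, against 26.5% of all windows. The RUNX word (TGNGGT with T or C as the third base, on either strand) was found in 1 of the 6, Gp9, against 18.6%. These are letter matches in a short window, and no binding was measured. The genes lie on 5 chromosomes, and Cd9 and Vwf are neighbours on chromosome 6 with 51982 bases between their ends (GENCODE M21).

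By group mean, Pf4, Vwf, Selp, Itga2b and Gp9 were highest in LK cells, while Cd9 was highest in old Cd11b cells and lowest in LK cells. For Selp the libraries overlapped, with LK MT replicate 2 (8.71 CPM) below young Cd11b WT replicate 4 (8.83 CPM). Gp1bb lay between 3.16 and 9.06 CPM in every library.

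**Figure D1:**
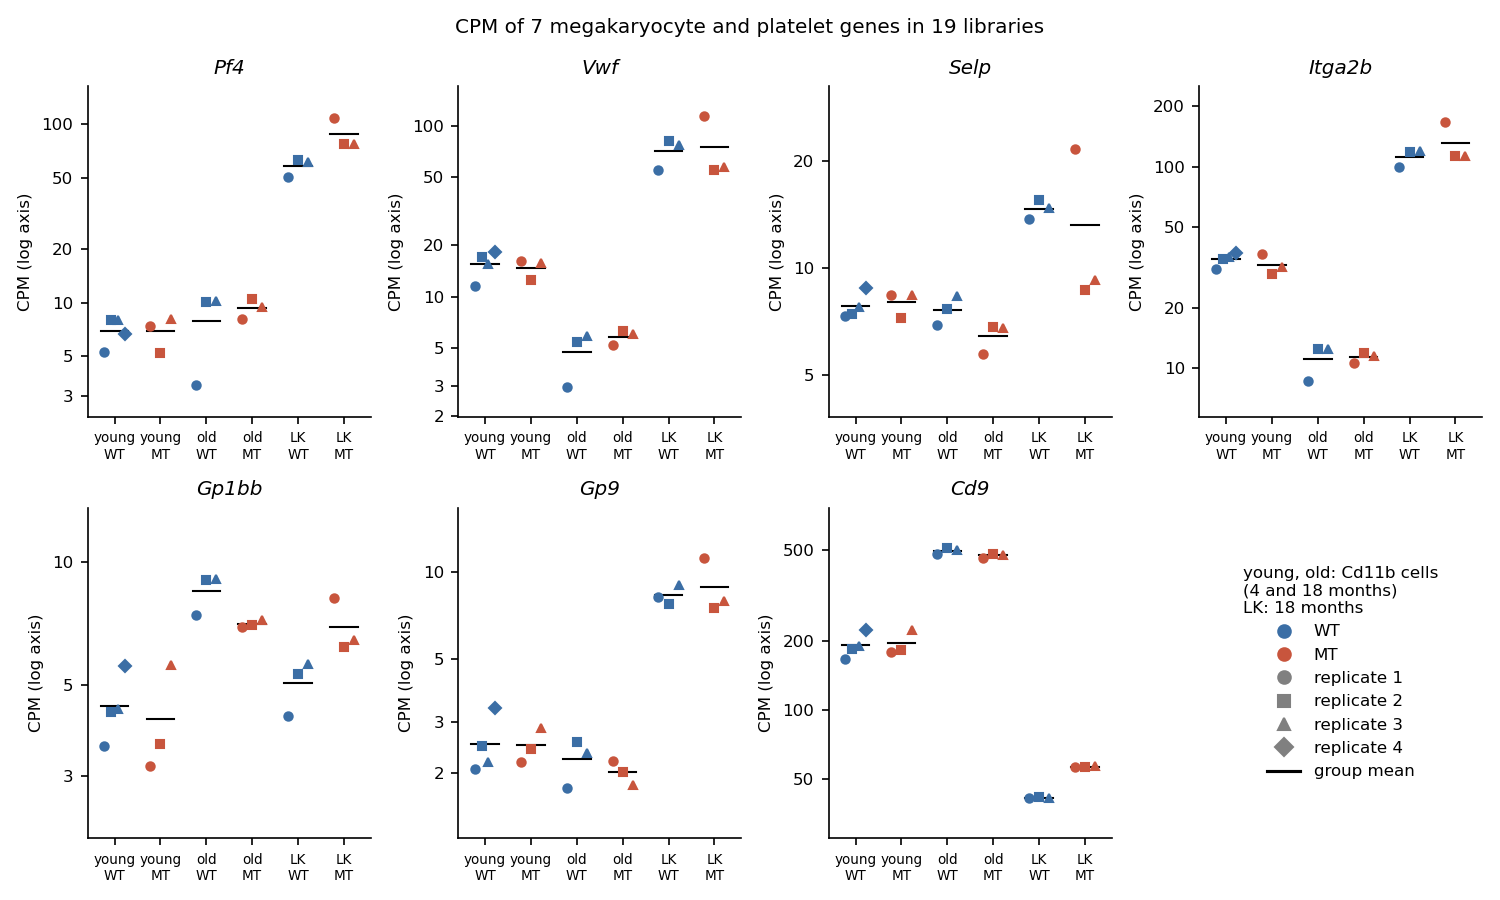
CPM on a log axis of the 7 genes in each library, by group, with WT in blue, MT in red, a marker shape per replicate and a line at the group mean. The LK libraries lie above all Cd11b libraries for Pf4, Vwf, Itga2b and Gp9, and below all of them for Cd9.

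Pf4 was at 50.4, 62.8 and 61.5 CPM in the LK WT libraries and at 3.45, 10.1 and 10.2 CPM in the old Cd11b WT libraries. All LK values lay above all old values. The log2 fold change of LK over old Cd11b cells was 2.79 ± 0.38 (SE; 6.94-fold; edgeR adjusted p 5.38e-04). Vwf was at 54.9, 81.8 and 77.0 CPM in LK WT and at 2.98, 5.46 and 5.88 CPM in old Cd11b WT libraries. Its difference was the widest upward among the members, 3.81 ± 0.26 on the log2 scale (edgeR adjusted p 2.82e-06). Selp was at 13.8, 15.6 and 14.8 CPM in LK WT and at 6.92, 7.67 and 8.33 CPM in old Cd11b WT libraries, a smaller difference of 0.85 ± 0.10 that still left a gap between the groups (edgeR adjusted p 4.88e-05).

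Among the receptors, Itga2b was at 99.4, 117 and 119 CPM in LK WT and at 8.63, 12.4 and 12.5 CPM in old Cd11b WT libraries. That is a log2 fold change of 3.24 ± 0.15 (9.41-fold; edgeR adjusted p 1.04e-07). Gp9 was at 8.18, 7.74 and 9.02 CPM in LK WT and at 1.78, 2.57 and 2.35 CPM in old Cd11b WT libraries, 3.50-fold apart (edgeR adjusted p 5.35e-06). Its complex partner Gp1bb went the other way. Gp1bb was at 4.20, 5.32 and 5.63 CPM in LK WT and at 7.41, 9.02 and 9.06 CPM in old Cd11b WT libraries, and the LK level was lower by a log2 fold change of -0.84 ± 0.15 (edgeR adjusted p 6.42e-04).

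Cd9 was at 41.3, 41.5 and 41.2 CPM in LK WT and at 479.7, 512 and 502 CPM in old Cd11b WT libraries. The LK level was lower by a log2 fold change of -3.68 ± 0.05 (edgeR adjusted p 3.43e-10). These WT libraries also entered the genotype values that chose Cd9. In this comparison of LK with old Cd11b cells, 86.8% of all genes tested were called (45.1% higher and 41.7% lower in LK cells), and 88.4% had groups that did not overlap, so 7 of 7 members called and not overlapping is near the rate of all genes. The order and size of the differences are what tell the members apart. All 7 were called under each of the 14 alternatives tried.

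**Figure D2:**
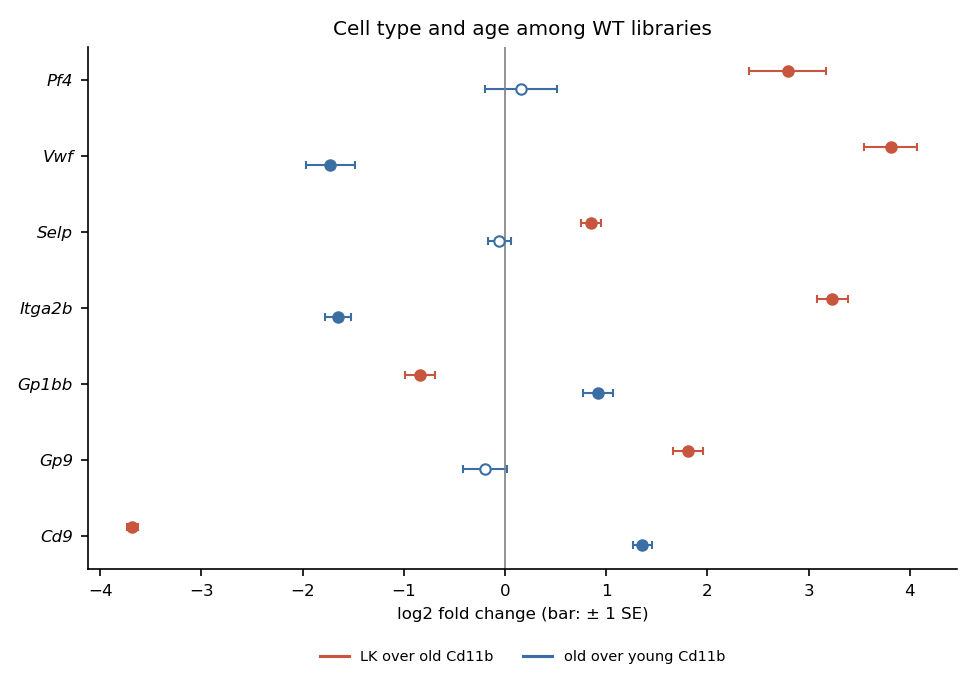
Log2 fold changes with 1 standard error for LK over old Cd11b cells (red) and old over young Cd11b cells (blue) among WT libraries, filled where the adjusted p was under 0.05. Vwf and Itga2b lie far right of 0 in the first comparison and left of 0 in the second, and Cd9 and Gp1bb show the opposite signs.

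Counts of Gp1bb hold a limit of their own. In GENCODE M21, 91.1% of the exon bases of Gp1bb (1902 bases) are shared with Sept5, which lies on the same strand and encodes a septin of the cytoskeleton. How the counting treated reads in shared exons is not given in the sources used here. Sept5 was at 345 to 374 CPM in old Cd11b, 118 to 145 CPM in young Cd11b and 7.36 to 24.8 CPM in LK libraries, so its counts were 40.5 to 51.7 times those of Gp1bb in old Cd11b cells and 1.31 to 3.85 times in LK cells. Among WT libraries both Gp1bb and Sept5 levels were thus lower in LK than in old Cd11b cells. Among MT libraries Gp1bb overlapped, at 6.20 to 8.17 CPM in LK and 6.92 to 7.20 CPM in old Cd11b cells. The part of Sept5 reads in the Gp1bb counts was not tested. With the counts of both summed, the LK over old Cd11b difference among WT libraries was -4.91. Sept5 gave the larger part of the sum in every library, so values from summed counts describe Sept5 more than Gp1bb. For Selp, 9.93% of exon bases overlap the antisense gene Gm16548, which was at 3.52 to 4.69 CPM in old Cd11b and at most 0.451 CPM in LK libraries.

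Per kilobase of the longest annotated transcript, the order of the members in LK WT libraries began with Pf4 at 99.0 ± 11.6 CPM per kilobase (SD, n = 3). Cd9 (33.7 ± 0.14) and Itga2b (32.6 ± 3.19) followed and overlapped each other. Gp9 (9.44 ± 0.74) and Vwf (8.06 ± 1.62) also overlapped, ahead of Selp (4.28 ± 0.26) and Gp1bb (2.42 ± 0.36). In old Cd11b WT libraries Cd9 led at 406 ± 13.6 CPM per kilobase, and Pf4 came next at 13.5 ± 6.58. Gp1bb (4.08 ± 0.45), Itga2b (3.26 ± 0.64), Gp9 (2.53 ± 0.46) and Selp (2.22 ± 0.21) overlapped in turn, and Vwf was last at 0.54 ± 0.18. In young Cd11b WT libraries (n = 4) Cd9 again led at 156 ± 19.3, Pf4 (11.9 ± 2.16) and Itga2b (10.1 ± 0.79) overlapped, and the other 4 members lay between 1.76 and 2.88 CPM per kilobase on average.

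Some genes of mature megakaryocytes were near the low end and others were not. Tubb1, the platelet tubulin, averaged 1.21 CPM in LK WT, 2.62 in old and 3.70 in young Cd11b WT libraries, and Gp6, the collagen receptor, averaged 0.231, 0.393 and 0.542 CPM. Ppbp, a platelet chemokine, averaged 6.72 CPM in LK WT and 17.97 CPM in old Cd11b WT libraries. These 3 were chosen after their values were seen. Of 63 other genes tested from 5 megakaryocyte and platelet lists, 24 were higher and 29 lower in LK than in old Cd11b WT cells. Their median difference was -0.53 on the log2 scale, against 0.08 over all genes. In the list of lineage regulators, mainly transcription factors, 9 of 13 were higher and 4 lower, led by Gfi1b (log2 fold change 6.31) and Zfpm1 (6.23), both partners of GATA factors. Among adhesion receptors, 4 of 10 were higher and 3 lower. Gp1ba and Gp5, the other subunits of the von Willebrand factor receptor complex, were higher (5.87 against 1.18 and 19.1 against 1.73 CPM), while Itgb3, the partner of Itga2b, was lower (37.8 against 128 CPM). Among alpha granule proteins 3 of 14 were higher and 8 lower, with Mmrn1 up (3.43) and Thbs1 down (-6.31). Endothelium is known to make Vwf and Selp too, and its markers summed to 66.05 to 66.1 CPM in LK WT and 26.5 to 32.1 CPM in old Cd11b WT libraries, and most of that sum in LK cells was Pecam1 (43.8 CPM). Of the 9 markers, 5 were higher in LK cells, among them Tek (4.72 against 0.457 CPM) and Esam (5.79 against 0.789 CPM). Lower were 3: Stab2 (0.558 against 9.20 CPM), Flt4 (0.471 against 1.38 CPM) and Cdh5 (0.775 against 1.30 CPM). The widest change of the list was that of Stab2 (log2 fold change -4.13). None of the 9 markers was at 0 in any library. Their part in the Vwf and Selp levels was not tested.

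Age was read among Cd11b WT libraries. Itga2b was at 8.63, 12.4 and 12.5 CPM at 18 months and at 31.0, 34.8, 35.6 and 37.4 CPM at 4 months. The groups lay far apart, with a log2 fold change of old over young of -1.65 ± 0.13 (edgeR adjusted p 1.32e-06). Vwf was at 2.98, 5.46 and 5.88 CPM at 18 months and at 11.5, 16.95, 15.6 and 18.3 CPM at 4 months, a difference of similar size (-1.73 ± 0.24; edgeR adjusted p 1.19e-04). Gp1bb was higher at 18 months (7.41, 9.02 and 9.06 against 3.55, 4.28, 4.36 and 5.57 CPM), by 0.92 ± 0.15 (edgeR adjusted p 2.63e-04). Cd9 was also higher, at 479.7 to 512 against 168 to 224 CPM (1.36 ± 0.09, edgeR adjusted p 4.56e-07). The old WT libraries also entered the genotype values that chose Cd9, so its call here is not free of that choice. For Pf4 (0.16 ± 0.35), Gp9 (-0.20 ± 0.22) and Selp (-0.05 ± 0.11) the groups overlapped and no change was called. Thus 4 of 7 members were called, 2 higher and 2 lower, where 73.1% of all genes tested were (36.1% higher and 36.9% lower), and the same 4 did not overlap, where 72.1% did not. Without old Cd11b WT replicate 1, which held the lowest Pf4 level of all libraries (3.45 CPM), Pf4 was also called higher in old cells (0.52; edgeR adjusted p 0.0175).

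Old and young cells differed in more than age. All 18-month libraries had more Ddx3y than Xist, and 5 of 7 young libraries the reverse, so age and sex cannot be fully told apart. A covariate for the sex left the count at 4, but this fit cannot separate age from sex. Among the young WT libraries compared, replicate 4 alone had more Ddx3y than Xist, so the age effect in that fit rests on it. The 2 ages were also deposited as separate sets. The other cell markers also differed between the old and young sets. The stem cell list summed to 16.98 to 23.1 CPM in old and 30.3 to 44.9 CPM in young Cd11b WT libraries, and 5 of its 7 tested genes were lower in old cells. The neutrophil list summed to 108700 to 136300 CPM in old and 37110 to 45080 CPM in young libraries. Their part in the member levels was not tested. Of the 13 lineage regulators, 11 were lower in old cells, among them Gata2 (3.12 against 35.01 CPM) and Zfpm1 (3.37 against 32.9 CPM). Nfe2 was higher (464 against 216 CPM).

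Genotype was compared within each cell set, and the clearest member differences were in LK cells. Pf4 was at 108, 77.2 and 76.8 CPM in LK MT and at 50.4, 62.8 and 61.5 CPM in LK WT libraries. Every MT value was above every WT value, and replicate 1 was the extreme in both groups. The log2 fold change was 0.56 ± 0.17 (1.47-fold; 95% interval 0.16 to 0.96), with an edgeR adjusted p of 0.0458. This was the 1 call among the 6 members tested, where 29.8% of all genes tested were called (13.9% higher and 15.9% lower in MT). Pf4 stayed higher in MT under all 14 alternatives, at 0.25 to 0.70, and its adjusted p was under 0.05 in 4 of them and up to 0.405 in the rest. It was 0.36 without MT replicate 1 (edgeR adjusted p 0.0311) and 0.43 without WT replicate 1 (edgeR adjusted p 0.176). Leaving out MT replicate 2 or 3 or WT replicate 2 or 3 also ended the call, at edgeR adjusted p of 0.0608 to 0.116.

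Vwf was at 114, 54.95 and 57.5 CPM in LK MT and at 54.9, 81.8 and 77.0 CPM in LK WT libraries. MT replicate 1 was above all WT libraries, and MT replicates 2 and 3 were close to the lowest of them. The log2 fold change of 0.05 ± 0.38 averages these unlike libraries (95% interval -0.93 to 1.04; edgeR adjusted p 0.928). Selp had the same shape, with 21.8, 8.71 and 9.27 CPM in LK MT and 13.8, 15.6 and 14.8 CPM in LK WT libraries (-0.18 ± 0.39; edgeR adjusted p 0.767). Here MT replicate 1 was above, and MT replicates 2 and 3 below, every WT library.

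Itga2b was at 167, 113 and 113 CPM in LK MT and at 99.4, 117 and 119 CPM in LK WT libraries. Apart from MT replicate 1, the genotypes lay close together (0.20 ± 0.18; edgeR adjusted p 0.443). Gp1bb was at 8.17, 6.20 and 6.45 CPM in LK MT and at 4.20, 5.32 and 5.63 CPM in LK WT libraries. The groups did not overlap, with MT higher, as for 22.6% of all genes tested, and the difference of 0.43 ± 0.16 missed the threshold (edgeR adjusted p 0.0760). It was 0.28 without replicate 1 of either genotype alone, 0.15 without both, and 0.998 with Sept5 counts added, which were the larger part of that sum. Gp9 was at 11.2, 7.48 and 7.95 CPM in LK MT and at 8.18, 7.74 and 9.02 CPM in LK WT libraries, with no change called (0.07 ± 0.16; edgeR adjusted p 0.781).

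**Figure D3:**
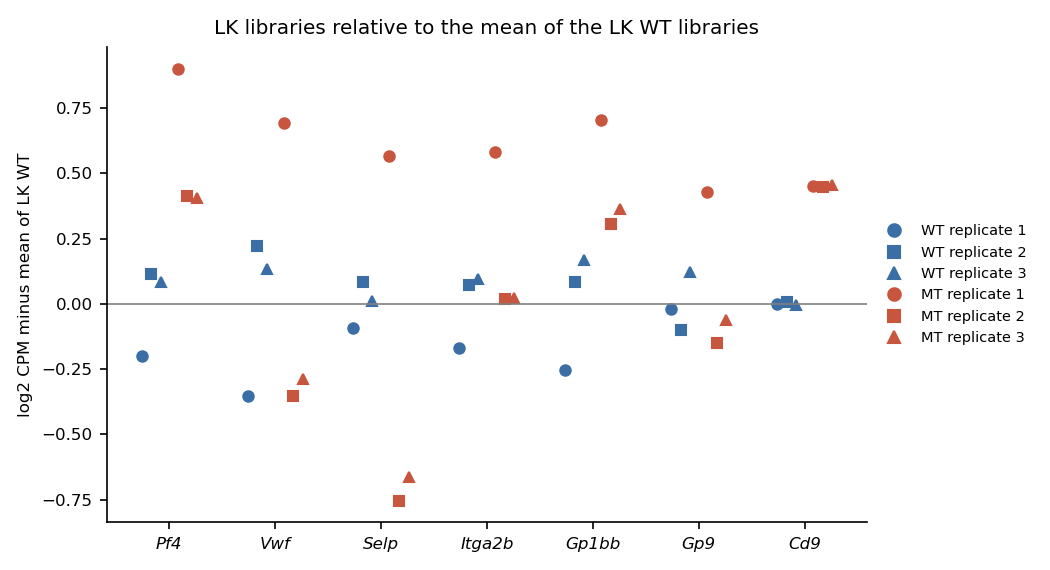
Log2 CPM of each LK library minus the mean of the LK WT libraries, per gene, with WT in blue, MT in red and a marker shape per replicate. LK MT replicate 1 is the highest library for every gene except Cd9, while LK MT replicates 2 and 3 lie below the WT mean for Vwf (-0.35 and -0.29) and Selp (-0.76 and -0.67).

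LK MT replicate 1 was the highest LK library for 6 of the 6 members other than Cd9, and LK WT replicate 1 was the lowest LK library for 4 of them, Pf4, Vwf, Itga2b and Gp1bb. The 6 genes summed to 430 CPM in LK MT replicate 1, against 268 and 271 CPM in MT replicates 2 and 3 and 231, 291 and 287 CPM in the WT libraries. Other markers moved with this split. The stem cell list summed to 143 CPM in LK MT replicate 1 and to 82.7 to 96.4 CPM in the other 5 LK libraries. The endothelial list was also highest there, at 73.8 CPM, against 52.2 and 56.7 CPM in MT replicates 2 and 3. The neutrophil list summed to 13370 CPM in MT replicate 1, 18280 and 18450 CPM in MT replicates 2 and 3 and 11240 to 13130 CPM in WT libraries, and Itgam was at 45.9, 85.3 and 85.5 CPM in the MT libraries. Of the other-cell lists, genes called higher and lower in LK MT numbered 4 and 0 of 9 for neutrophils, 1 and 4 of 7 for monocytes, 1 and 5 of 8 for mast cells and basophils and 0 and 2 of 10 for erythroid cells. They numbered 1 and 1 of 9 for endothelium, and 1 and 0 for each of the B lineage, T and NK and stem cell lists (8, 6 and 8 tested). Over all genes tested, 29.8% were called, 13.9% higher and 15.9% lower. The share called was 44.4% for neutrophils, 71.4% for monocytes and 75% for mast cells and basophils. For the other lists it was 12.5% to 22.2%, below that of all genes. The part of these cells in the member values was not tested.

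With replicate 1 of each 18-month group left out, a choice made after seeing the data, 4 members were called in LK cells. Vwf was lower in MT by a log2 fold change of -0.56, Selp by -0.81 and Itga2b by -0.12, and Pf4 was higher by 0.25 (edgeR adjusted p 8.16e-16, 2.81e-12, 4.35e-05 and 6.21e-09). That fit called 8525 genes, against 4206 of 14113 tested with all libraries. Calls were thus common over all genes, so 4 of 6 members called does not set the members apart. The fit rests on the small spread between replicates 2 and 3. Whether these are separate mice or share a preparation is not given in the sources used here, so the p-values of this fit may measure technical spread only. The direction of the Vwf and Itga2b differences thus depended on replicate 1, and that of Pf4 did not. The log2 fold changes in LK cells also fell with transcript length over all genes (Spearman correlation -0.46 over 12556 genes, which are not independent replicates). Pf4 has the shortest annotated length of the 7 genes (588 bases) and Vwf the longest (8834 bases). With the trend of length and GC removed, Pf4 was at 0.31 (edgeR adjusted p 0.405).

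Cd9 was at 56.6, 56.4 and 56.7 CPM in LK MT and at 41.3, 41.5 and 41.2 CPM in LK WT libraries. The LK values hardly varied within a genotype, replicate 1 included, with a difference of 0.42 ± 0.04 on the log2 scale. Over the 14 alternatives this difference ran from 0.244 to 0.452. Cd9 in the old set was at 462, 483 and 478 CPM in MT and at 479.7, 512 and 502 CPM in WT libraries (-0.08 ± 0.04), with overlap. The LK minus old Cd11b difference of the genotype effects, for which Cd9 was chosen, was 0.49 ± 0.06, and it was 0.30 with the length and GC trend removed. In young Cd11b cells Cd9 was at 179, 182 and 224 CPM in MT and at 168, 186, 189.7 and 224 CPM in WT libraries (0.03 ± 0.11).

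**Figure D4:**
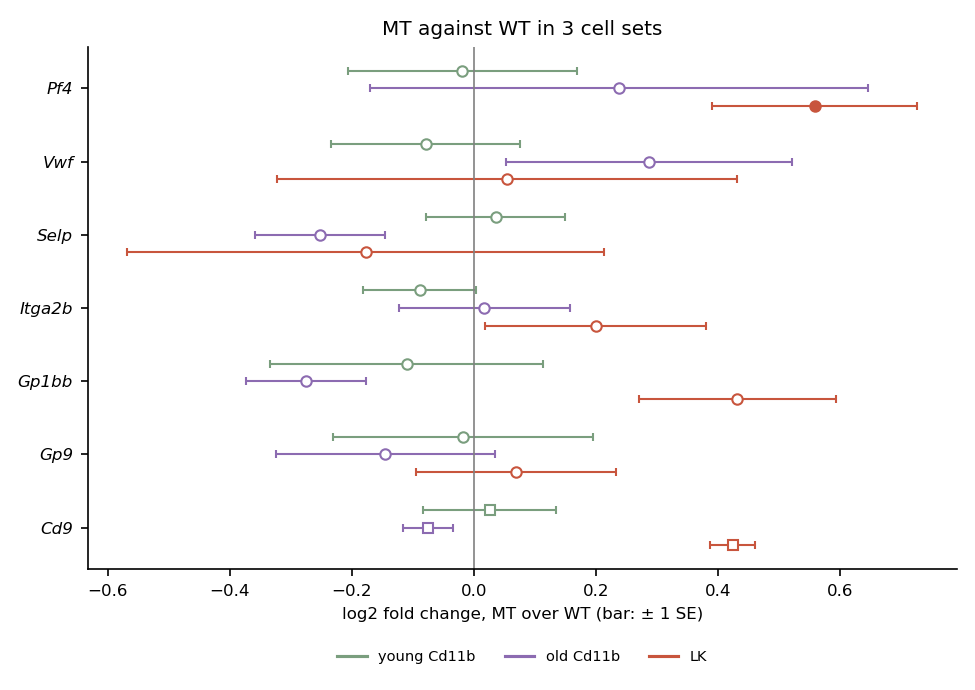
Log2 fold changes of MT over WT with 1 standard error in young Cd11b (green), old Cd11b (purple) and LK cells (red). The filled point, Pf4 in LK cells, is the 1 call; squares mark Cd9, which was not tested.

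In old Cd11b cells no member other than Cd9, which was not tested, was called, where 0.336% of all genes tested were called. Gp1bb was at 6.92, 7.03 and 7.20 CPM in MT and at 7.41, 9.02 and 9.06 CPM in WT libraries (-0.27 ± 0.10; edgeR adjusted p 0.229). Selp was at 5.73, 6.84 and 6.78 CPM in MT and at 6.92, 7.67 and 8.33 CPM in WT libraries (-0.25 ± 0.11; edgeR adjusted p 0.288). For both, every MT library was below every WT library, as for 11.7% of all genes tested. Without WT replicate 1, Gp1bb was called lower in MT (-0.37; edgeR adjusted p 0.0239). Without replicate 1 of either group, Gp1bb (-0.36, edgeR adjusted p 0.0024) and Selp (-0.25, edgeR adjusted p 0.0358) were. The share of all genes called in these refits is not reported here, so the calls are not set against it. Pf4 was at 8.11, 10.5 and 9.47 CPM in MT and at 3.45, 10.1 and 10.2 CPM in WT libraries, and its difference of 0.24 ± 0.41 was -0.13 without WT replicate 1. Vwf was at 5.23, 6.29 and 6.01 CPM in MT and at 2.98, 5.46 and 5.88 CPM in WT libraries (0.29 ± 0.23), and was 0.035 without WT replicate 1. Itga2b was at 10.6, 11.9 and 11.5 against 8.63, 12.4 and 12.5 CPM (0.02 ± 0.14), and Gp9 at 2.21, 2.01 and 1.82 against 1.78, 2.57 and 2.35 CPM (-0.15 ± 0.18). WT replicate 1 was the lowest old library for Pf4, Vwf, Itga2b and Gp9.

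In young Cd11b cells none of the 6 members tested was called by edgeR or DESeq2. Pf4 was at 7.39, 5.25 and 8.13 CPM in MT and at 5.33, 7.97, 7.99 and 6.64 CPM in WT libraries. Vwf was at 16.1, 12.6 and 15.6 CPM in MT and at 11.5, 16.95, 15.6 and 18.3 CPM in WT libraries. Itga2b was at 36.8, 29.5 and 31.7 CPM in MT and at 31.0, 34.8, 35.6 and 37.4 CPM in WT libraries. For each of these 3 genes the genotypes overlapped. Gp1bb, Gp9 and Selp lay at 3.16 to 5.60, 2.07 to 3.38 and 7.26 to 8.83 CPM over the 7 young libraries. The log2 fold changes lay between -0.11 for Gp1bb and 0.04 for Selp, and all groups overlapped. edgeR called 0 of 13755 genes in this comparison (percent called 0), with 444 at an unadjusted p under 0.05, and DESeq2 called 19, none of them a member. Intervals of the differences were not narrow: that of Pf4 ran from -0.44 to 0.40 and that of Itga2b from -0.30 to 0.12 (95%).

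The difference between genotype effects was tested directly. For genotype by cell type at 18 months, Gp1bb was called, with the MT over WT log2 fold change 0.70 ± 0.20 higher in LK than in old Cd11b cells (95% interval 0.26 to 1.14; edgeR adjusted p 0.0318). That was 1 of 6 members tested, where 20.7% of all genes were called (8.79% in this direction). Sept5, which shares exons with Gp1bb, was at 11.8, 22.96 and 24.8 CPM in LK MT and at 7.36 to 9.50 CPM in LK WT libraries. Within LK MT, replicate 1 had the lowest Sept5 and the highest Gp1bb level (8.17 CPM). In old Cd11b cells Sept5 was at 354.8, 363 and 367.5 CPM in MT and at 344.7, 373.9 and 367.1 CPM in WT libraries, with overlap. The part of Sept5 reads was not tested. The call was made in 13 of 21 alternatives, at 0.49 to 1.002 over all of them. The end at 1.002 is the fit with Sept5 counts added, which was called and held more Sept5 than Gp1bb counts. The call ended, for example, without old Cd11b WT replicate 3 (edgeR adjusted p 0.0800) and with the length and GC trend removed (edgeR adjusted p 0.121). The other 5 members were not called, with Pf4 at 0.31 ± 0.46 and Vwf at -0.24 ± 0.53. With replicate 1 of each group left out, Pf4, Vwf and Selp were called as well (0.26, -0.68 and -0.59). The share of all genes called in that refit is not reported here, so these calls are not set against it. For genotype by age in Cd11b cells, 0 of 6 members were called by edgeR, where 0.0214% of all genes were, and DESeq2 called none of the 6; the widest difference was that of Vwf (0.37 ± 0.30), which was 0.11 without old Cd11b WT replicate 1.

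Of the 63 other genes tested from the 5 megakaryocyte and platelet lists, 7 were higher, 7 lower and 49 not called in LK MT against LK WT cells. The 14 calls are 22.2% of the genes tested, below the 29.8% of all genes. By sign alone, 45 of the 63 values were above 0, with a median of 0.09 against 0.02 over all genes. Values above 0 numbered 15 of 18 for platelet signalling, 11 of 14 for alpha granule proteins, 10 of 13 for lineage regulators, 6 of 10 for adhesion receptors and 3 of 8 for the cytoskeleton. Among the lineage regulators, Fli1 (0.33 ± 0.04, edgeR adjusted p 0.0063) and Nfe2 (0.18 ± 0.04, edgeR adjusted p 0.0169) were higher. Zfpm1 (-0.26 ± 0.08, edgeR adjusted p 0.0482) and Tal1 (-0.21 ± 0.04, edgeR adjusted p 0.0113), of the same list, were lower. Ptgs1, which makes the precursor of thromboxane, was higher (50.7 against 37.6 CPM), as was Rasgrp2, an activator of Rap1 (166 against 132 CPM). Itga2, the alpha subunit of a collagen receptor, was lower (0.559 against 1.20 CPM). Of the alpha granule genes, Serpine2 and Tgfb1 were higher and F13a1 and Vps33b lower. In the cytoskeleton list Tuba8 was higher (0.49), and Flna (-0.21) and Myh9 (-0.20) were lower. The LK log2 fold changes fell with transcript length over all genes (Spearman correlation -0.46), and this trend was not removed from the list values.

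**Figure D5:**
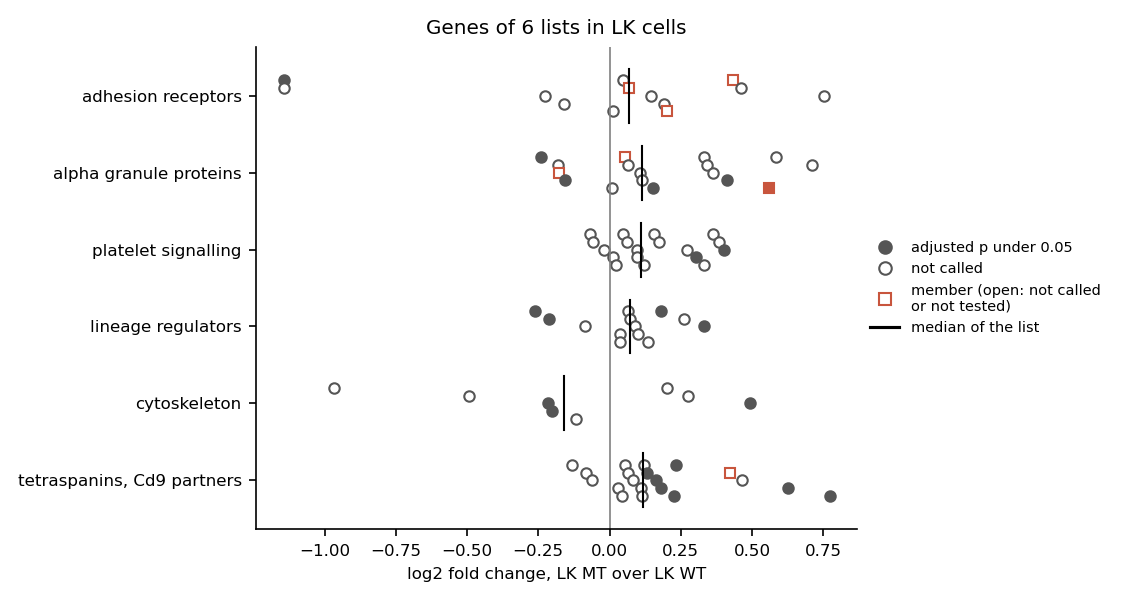
Log2 fold change of LK MT over LK WT for each tested gene of 6 lists, filled where the adjusted p was under 0.05, with members as red squares and a line at the median of each list, members included. Points of 5 lists lie on both sides of 0 with filled points mostly within 0.5, and all filled points of the tetraspanin list lie right of 0.

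Among the tetraspanins and partners of Cd9, 7 of 19 tested genes were higher in LK MT and 0 were lower by edgeR, with a median of 0.11 (0.02 over all genes), and the other 12 were not called. The 7 calls are 36.8% of the list, where 29.8% of all genes were called and 13.9% were called higher. Tspan9, another tetraspanin of platelets, was at 6.94 against 3.97 CPM (0.77 ± 0.09; edgeR adjusted p 0.0063). Cd63, a tetraspanin of granule membranes, was at 261 against 166 CPM (0.63 ± 0.12, edgeR adjusted p 0.0115). The trend with transcript length was not removed from these LK values either. In old and in young Cd11b cells 0 of the 19 were called by edgeR, where 0.336% and 0% of all genes were.

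How the members varied together was described over the 19 libraries, which share cell sets and depth. As deviations from the group means, log2 CPM of Itga2b and Vwf had a Pearson correlation of 0.97, Pf4 correlated with each of them at 0.83, and Selp with Vwf at 0.82. Gp1bb went with Cd9 (0.83) and Gp9 (0.79) instead, and Cd9 with Itga2b only at 0.25. Cd9 deviated most in young MT replicate 3 (0.207) and young WT replicate 4 (0.234), against -0.005 to 0.006 in LK libraries. Gp1bb was at 0.439 and 0.311 in those young libraries, both of which had more Ddx3y than Xist. Their part in the correlations with Cd9 deviations was not tested. Across levels, Itga2b and Cd9 were opposed (-0.98). Among 12153 genes ranked, the deviations most like those of Pf4 were of Pls1 (0.93), Bgn (0.90), Rab27b (0.89), Hba-a2 (0.89) and Syp (0.88), and the levels most like it were of Rgs10, Tyms, Snrpe, Snrpg and Lsmd1 (0.98 each). For Cd9 the deviations were most like those of Spop (0.97), Vps54 (0.95), Cdadc1 (0.95), Riok3 (0.95) and Ifrd1 (0.95), and the levels most like it included those of Msra, Ostf1, Arpc5 (0.998 each) and Fes (0.997).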

How the data were processed

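RNA-seq of 19 marrow libraries was read from the deposited tables of counts per gene, 1 set each for young Cd11b, old Cd11b and LK cells. Per the submitters' processing notes, the authors used STAR, HTSeq and DESeq2 with build mm10; versions, strand use and the handling of reads in shared exons are not given in the sources used here. Per the labels' protocols, directional libraries were made from total RNA. Each comparison was fitted on its own libraries with edgeR 4.0.16 (quasi-likelihood, filterByExpr, TMM), with Benjamini-Hochberg adjustment over all genes tested and a threshold of 0.05 on the adjusted p. CPM came from 1 set of factors over all 19 libraries. Gene models were GENCODE M21 and promoters RefSeq GRCm38.p6, with no entry for Vwf. The fits were tested on simulated counts. Replicates were grouped by label. The members and gene lists were chosen with earlier results of these data known. From each list, the called genes with the widest change were named (at most 2 per direction, with at least 50 counts on average in the higher group). Outside this rule, Gp1ba, Gp6, Ppbp, Tubb1 and Cdh5 were chosen after their values were seen. Alternatives were RLE factors, no filter, DESeq2 1.42.0, a fit of all libraries, left-out libraries, a replicate block, replicates 2 and 3 summed, a sex covariate and removal of the length and GC trend. Tables of transposable elements were not used. Some genes that the naming rule gave are not reported here.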

Additional observations from a re-analysis of the deposited data

Results flagged for a closer look

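The genotype effect on Gp1bb differed between the cell sets at 18 months by 0.699 on the log2 scale (SE 0.20; edgeR adjusted p 0.0318 for the interaction). In LK cells all 3 MT libraries were above all 3 WT libraries (0.43 ± 0.16), and in old Cd11b cells all 3 MT libraries were below all 3 WT libraries (-0.27 ± 0.10). Neither of these within-set differences was called. Over the alternatives the LK value ran from 0.154 to 0.998 and the old Cd11b value from -0.366 to -0.011, and the ends at 0.998 and -0.011 are those with Sept5 counts added. The interaction was 1.002 with Sept5 counts added (edgeR adjusted p 0.0061) and 0.533 with the length and GC trend removed, where it was no longer called (edgeR adjusted p 0.121). Sept5 gave the larger part of the summed counts in every library, so values with Sept5 counts added describe Sept5 more than Gp1bb. How many Gp1bb counts came from Sept5 reads was not tested.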

How the results depend on the processing

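The members called in LK against old Cd11b cells numbered 7 under every alternative, and in old against young cells 4, or 5 without old Cd11b WT replicate 1. In young cells and for genotype by age 0 were called under every alternative. In LK MT against WT the count of 1 became 0 with no low-count filter, in the fit of all 19 libraries, with the replicate block, with replicates 2 and 3 summed and with the length and GC trend removed. It became 2 with DESeq2 and with Gp1bb and Sept5 counts summed, 4 without replicates 1, and 0 to 2 when 1 library was left out. Sept5 gave the larger part of the summed counts. For genotype by cell type the count of 1 became 0 in the fit of all 19 libraries, with the replicate block, with replicates 2 and 3 summed and with the trend removed, 4 without replicates 1, and 0 to 2 with 1 library left out. In old cells the count of 0 became 2 without replicates 1 and 0 to 1 with 1 library left out. For most alternatives the share of all genes called is not reported here, so these counts are not read as results about the members. In the LK fit without replicates 1, calls were common over all genes, as given above. The causes were not tested.

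Of the log2 fold changes, these changed sign. With the replicate block, Gp9 (0.148) and Vwf (0.013) did in young cells, Vwf in LK cells (-0.021), Selp for genotype by cell type (-0.068) and Selp in old against young cells (0.004). With the trend removed, Gp9 did in young (0.018) and LK cells (-0.169), as did Gp9 (-0.084) and Vwf (0.015) for genotype by cell type. Without replicates 1, Pf4 (-0.035) and Itga2b (-0.102) did in old cells, Itga2b (-0.121), Gp9 (-0.167) and Vwf (-0.559) in LK cells, and Itga2b (-0.042) and Selp (-0.586) for genotype by cell type. In young cells Gp9 was 0.041 without MT replicate 3 and WT replicate 4, and Gp1bb 0.036 with Sept5 counts added. In LK cells Selp was 0.056 with replicates 2 and 3 summed.

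With 1 library left out, values in young cells ran from -0.391 to 0.052 for Gp1bb, -0.125 to 0.149 for Gp9, -0.151 to 0.156 for Pf4 and -0.191 to 0.032 for Vwf. In old cells they ran from -0.141 to 0.106 for Itga2b and -0.125 to 0.471 for Pf4. In LK cells they ran from -0.029 to 0.304 for Itga2b, -0.147 to 0.182 for Gp9, -0.386 to 0.243 for Vwf and -0.754 to 0.055 for Selp. Selp was called lower without LK MT replicate 1 (edgeR adjusted p 0.0031). For genotype by cell type they ran from -0.468 to 0.321 for Selp, -0.639 to 0.015 for Vwf and -0.013 to 0.33 for Itga2b. For genotype by age they ran from -0.321 to 0.118 for Gp1bb, -0.105 to 0.492 for Pf4 and -0.052 to 0.2 for Itga2b. In old against young cells they ran from -0.119 to 0.018 for Selp and -0.072 to 0.522 for Pf4. As deviations from group means, same-numbered libraries of different groups correlated at -0.24 to 0.28 and differently numbered ones at -0.43 to 0.52. With so few libraries per group, this cannot tell whether same-numbered libraries share a mouse, litter or preparation.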
